A study of Rattus norvegicus with 6 samples.

Results

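The genes described here copy DNA and supply its building blocks. They were chosen by name from a list of 42 G1/S and S-phase genes, and 41 of them had a row among the 25926 features of the deposited liver table. The remaining one, E2f1, is not analysed here. RNA was sequenced from the livers of 3 control rats and 3 rats on total parenteral nutrition (TPN), in which all nutrients are infused into a vein. All 6 were Sprague-Dawley rats labelled 4 weeks old. Controls had the disease label normal and were given 0.9% saline, and the TPN rats were fed this way for 7 days and had the label PNALD (parenteral nutrition-associated liver disease). The labels give no catheter, litter, cage or sex for either group, and the p-values measure the spread between these rats.

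A cell that divides first licenses its replication origins. The origin recognition complex, Cdc6 and Cdt1 load the ring-shaped MCM helicase, and GINS helps to activate it. DNA polymerases, the sliding clamp PCNA and its loader, the single-strand binding protein RPA and a set of nucleases and ligases then copy the strands. The deoxynucleotides come from ribonucleotide reductase, thymidylate synthase and thymidine kinase. Cyclin D1 and cyclin E, acting through the E2F transcription factors, open this programme. Most hepatocytes of an adult liver rest outside the cycle, whereas a young, growing liver still holds dividing cells.

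Levels are given in FPKM, fragments per kilobase of transcript after scaling to the library's total, so that different genes can be set side by side. The FPKM of a rat summed to between 509630 and 544670 over all features, and the depth of the libraries is unknown. Albumin, the main product of hepatocytes, measured 12828 to 48388 FPKM in the 6 rats. One rat of each group stood apart in the acute-phase gene Lcn2. TPN 1 held 9127 FPKM against 172 and 77.2 in the other TPN rats, and control 2 held 112 against 3.68 and 7.29 in the other controls. Results that turn on these rats are therefore given with and without them, and the part of the acute phase in them was not tested. In whole liver, fewer cells of a type and less RNA per cell cannot be told apart.

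Rrm2, a subunit of the enzyme that makes deoxynucleotides, and cyclin D1 had the largest folds between the groups among the members. All 5 enzymes of nucleotide supply were lower in TPN liver without overlap, while most of the replication machinery overlapped. Of the 41 members 36 had a negative log2 fold change (TPN minus control, of log2(FPKM + 1)), with a median of -0.24 against -0.0059 over all 20562 features tested. In 11 members every TPN rat lay under every control rat, and in 1, Mcm10, every TPN rat lay above. These counts are 26.8% and 2.44% of the members, against 8.33% and 6.08% of all features. All 5 nucleotide supply genes were among the 11, with a median of -0.66, against 6 of the other 36 members, whose median was -0.18. The members are low in level, and 16 of the 41 had a mean under 1 FPKM, where adding 1 before the logarithm shrinks a difference.

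No member passed limma's test across all features at a Benjamini-Hochberg adjusted p under 0.05, and nor did any other feature (0 of 20562 in either direction, 0%). At an unadjusted p under 0.05 limma found 9 members lower and 1 higher, where 5.97% of all features were lower and 3.26% higher. The smallest adjusted p among the members was 0.113, for Rrm2. The outcome for Rrm2 depended on which features were tested. When the test was limited to the 11362 features whose mean reached 1 FPKM, limma called 28, and Rrm2 was the only one of the 25 members in it to pass (adjusted p = 0.0166). Rrm2 met this limit only through the controls, as its highest TPN value was 0.267 FPKM, so this result is no independent support.

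**Figure D1:**
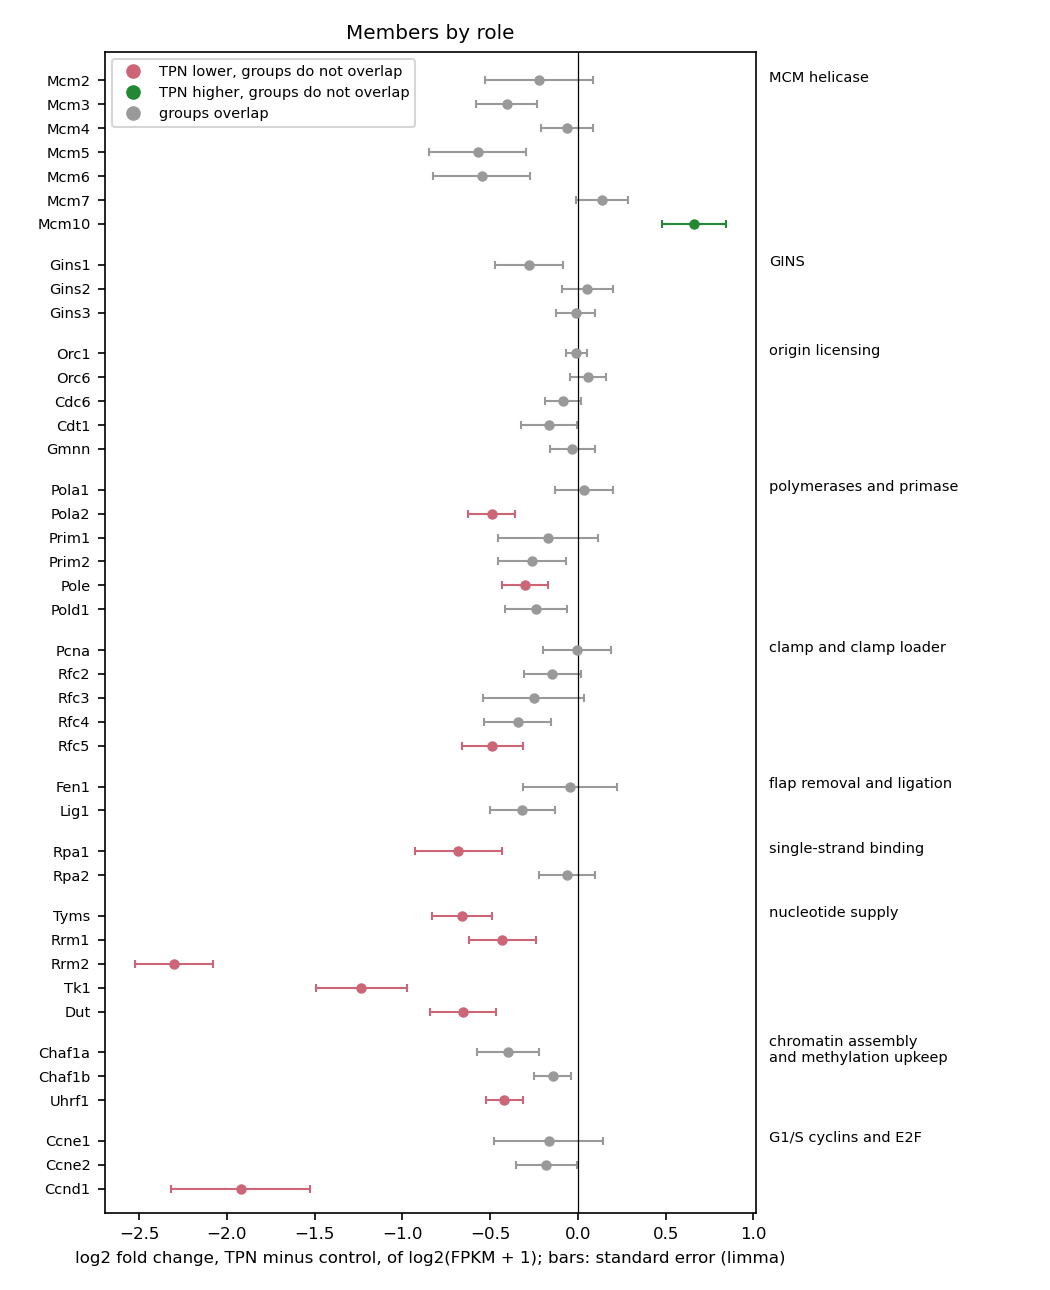
Log2 fold change (TPN minus control, of log2(FPKM + 1)) of the 41 members, grouped by role, with the standard error of limma's fit as bars. Red points mark the 11 members whose TPN values all lie under the control values, green the 1 whose TPN values all lie above (Mcm10), and grey the others, with Rrm2 at -2.30 and Ccnd1 at -1.92 farthest to the left.

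Rrm2 encodes the small, radical-bearing subunit of ribonucleotide reductase, which is made mainly in S phase. Its row (ENSRNOG00000054286) measured 6.11, 5.93 and 3.18 FPKM in control 1, 2 and 3, and 0.267, 0.184 and 0.146 in TPN 1, 2 and 3. Every TPN rat was far under the lowest control, and the ratio of the group means was 25.5 (log2 fold change -2.30, SE 0.22, limma unadjusted p = 3.12e-05, adjusted p = 0.113). With this pseudocount the log2 value understates that ratio.

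Rrm1, the large catalytic subunit that pairs with Rrm2, was nearer between the groups. It measured 7.45, 4.37 and 5.29 FPKM in the controls and 3.99, 3.54 and 4.15 in the TPN rats, so that the highest TPN rat lay just under control 2 (log2 fold change -0.43 with SE 0.19, adjusted p = 0.555 by limma). The 2 subunits therefore came apart within each library. The ratio of Rrm2 to Rrm1 was 0.926 ± 0.389 in control and 0.0514 ± 0.0159 in TPN (SD, n = 3), a quantity that does not depend on how libraries are scaled. Rrm2b, the alternative small subunit that p53 induces, was also lower without overlap. It measured 5.50, 4.98 and 5.92 FPKM in control and 2.07, 3.38 and 3.43 in TPN (limma adjusted p = 0.306). In control liver both small subunits were at a similar level, with a ratio of Rrm2 to Rrm2b of 0.946 ± 0.357, and in TPN liver that ratio was 0.0753 ± 0.0467.

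The thymidine nucleotide enzymes followed with smaller differences. Tk1, the cytosolic thymidine kinase that salvages thymidine, measured 7.81, 5.70 and 5.71 FPKM in control and 2.73, 1.14 and 2.81 in TPN, a 2.88-fold difference of means (log2 fold change -1.23 with SE 0.26, adjusted p = 0.256 by limma). All 3 TPN rats were under every control, and TPN 2 was the lowest. Tyms, thymidylate synthase, measured 6.45, 4.43 and 4.95 FPKM in control and 2.53, 2.87 and 3.47 in TPN (log2 fold change -0.66 with SE 0.17, adjusted p = 0.322 by limma). Dut, which hydrolyses dUTP and so keeps uracil out of DNA, measured 13.8, 10.5 and 15.3 FPKM in control and 7.11, 7.31 and 9.55 in TPN (log2 fold change -0.65 with SE 0.19, adjusted p = 0.373 by limma). In Tyms and Dut the gap between the groups was narrower than the range of the controls, with control 2 lowest among the controls and TPN 3 highest among the TPN rats. Across the 5 genes the summed level ran from 30.9 to 41.6 FPKM in the controls and from 15.0 to 20.1 in the TPN rats.

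**Figure D2:**
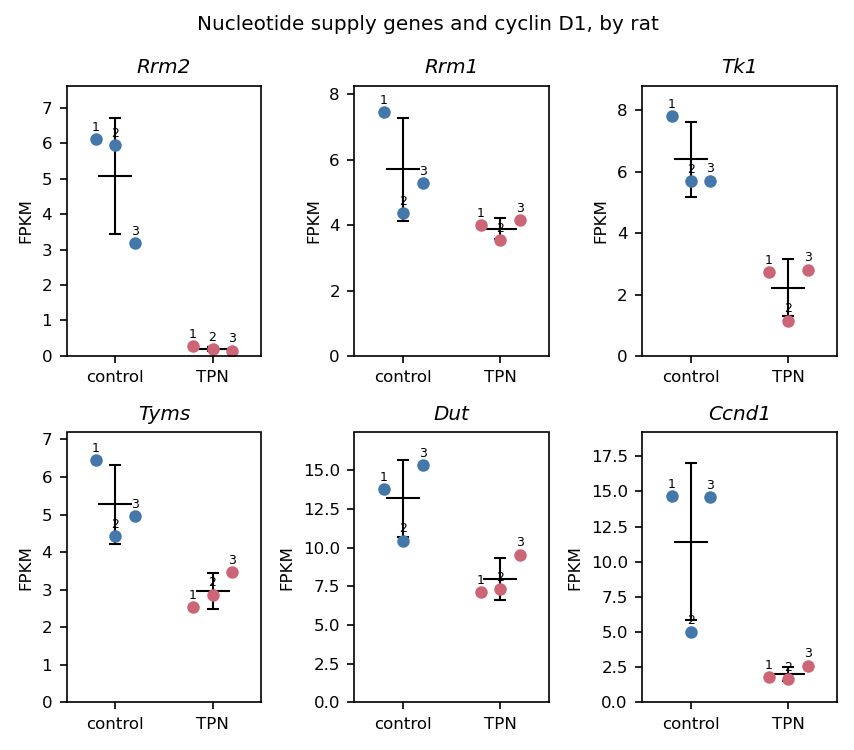
FPKM by rat of the 5 nucleotide supply genes and of Ccnd1, with the rat's number beside each point and the mean and SD of the 3 rats as bars. In each panel the 3 TPN points lie under the 3 control points, by the widest margin for Rrm2 (3.18 at the lowest control and 0.267 at the highest TPN rat).

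The promoters of these genes were read from RefSeq's table for the build GRCr8, which held 38 windows of 300 bases for 35 members (250 before the transcript start and 50 after). They were searched on both strands for the E2F letters TTTCCCGC, TTTCGCGC, TTTGCCGC and TTTGGCGC, since E2F is the textbook regulator of this gene group. The table held 5 windows of nucleotide supply genes, 2 of them of Dut and none of Rrm2. A match stood in 1 of the 5, that of Tyms. The 250 bases before the start are shown for Tyms and for Tk1, because both were lower without overlap and only one holds the letters, which are in capitals. They lie at chr9:120776084-120776333 and chr10:103544778-103545027, both on the minus strand.
Tyms: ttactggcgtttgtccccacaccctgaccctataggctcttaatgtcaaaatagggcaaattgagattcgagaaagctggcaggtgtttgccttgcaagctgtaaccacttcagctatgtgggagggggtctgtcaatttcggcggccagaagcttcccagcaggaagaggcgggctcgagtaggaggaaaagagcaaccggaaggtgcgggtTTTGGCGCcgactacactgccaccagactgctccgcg
Tk1: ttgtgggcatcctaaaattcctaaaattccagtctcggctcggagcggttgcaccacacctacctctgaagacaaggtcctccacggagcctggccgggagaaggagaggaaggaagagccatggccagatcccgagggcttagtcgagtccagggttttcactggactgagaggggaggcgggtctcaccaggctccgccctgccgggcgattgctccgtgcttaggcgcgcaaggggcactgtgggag

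Of the 3 cyclin members, cyclin D1 was lower without overlap. Ccnd1, which carries growth signals into the cycle by activating Cdk4 and Cdk6, measured 14.7, 4.99 and 14.6 FPKM in control and 1.78, 1.67 and 2.62 in TPN. Its means differed 5.64-fold (log2 fold change -1.92, SE 0.39, limma unadjusted p = 0.00224, adjusted p = 0.250). Control 2 lay between the other controls and the TPN rats, and no TPN rat reached it. The relatives Ccnd2 and Ccnd3, looked at after Ccnd1's values were seen, were not lower. Ccnd2 overlapped, at 2.28 to 2.93 FPKM in control and 2.47 to 3.87 in TPN. Ccnd3 was higher without overlap by a narrow margin, and measured 8.37, 9.87 and 9.85 FPKM in control and 11.7, 10.1 and 10.7 in TPN. The ratio of Ccnd1 to Ccnd3 was 1.25 ± 0.655 in control and 0.188 ± 0.0505 in TPN (SD, n = 3), without overlap. Ccne1 and Ccne2, the cyclin E genes that drive origin firing, overlapped between groups, with 0.765 to 2.26 FPKM in control and 0.430 to 1.43 in TPN for Ccne1 and 0.645 to 1.36 and 0.582 to 0.919 for Ccne2.

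The genes that license origins were low in both groups and overlapped throughout. Orc1, a subunit of the origin recognition complex, did not exceed 0.117 FPKM in any rat and was listed at 0 in TPN 3. Orc6 measured 0.391 to 0.527 FPKM in control and 0.430 to 0.606 in TPN. Cdc6 measured 0.169 to 0.323 FPKM in control and 0.0528 to 0.267 in TPN, and its partner in loading Cdt1 0.454 to 0.758 and 0.253 to 0.743. Gmnn, geminin, which binds Cdt1 to prevent a second round of licensing, was the highest of the 5, with 1.33, 0.912 and 1.06 FPKM in control and 1.18, 0.905 and 1.075 in TPN. The 5 genes had log2 fold changes between -0.17 and 0.056, and their smallest limma adjusted p was 0.767.

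The MCM genes did not move as a unit. Mcm2 to Mcm7 encode the 6 subunits of one ring, yet Mcm7 and Mcm4 were at similar levels in both groups while Mcm3, Mcm5 and Mcm6 were low in 2 TPN rats. Mcm7 was the highest of the ring, with 4.94, 3.73 and 5.20 FPKM in control and 4.99, 5.62 and 4.84 in TPN (log2 fold change 0.14, SE 0.15). Mcm4 measured 2.56, 2.64 and 3.15 FPKM in control and 3.17, 2.19 and 2.56 in TPN. Mcm5 measured 1.24, 0.961 and 1.53 FPKM in control and 1.30, 0.280 and 0.150 in TPN. TPN 1 was thus within the controls and the other TPN rats were far under them.

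Mcm6 and Mcm3 had the same pattern, with TPN 1 within the controls and TPN 2 and 3 under them. Mcm6 measured 1.92, 1.49 and 2.77 FPKM in control and 1.98, 0.880 and 0.565 in TPN. Mcm3 measured 1.19, 0.870 and 1.38 FPKM in control and 0.981, 0.502 and 0.407 in TPN. In Mcm2 the TPN rats held both the highest and the lowest value of the 6, with 3.61, 1.52 and 1.19 FPKM against 2.57, 1.75 and 3.12 in control. Relative to Mcm7 in the same library, Mcm5 stood at 0.251, 0.258 and 0.294 in the controls, at 0.261 in TPN 1, and at 0.0499 and 0.0309 in TPN 2 and 3. The ratio of Mcm3 to Mcm7 did not overlap, with 0.246 ± 0.0172 in control and 0.123 ± 0.0635 in TPN (SD, n = 3). Those of Mcm2, Mcm4, Mcm5 and Mcm6 to Mcm7 overlapped between the groups.

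Limma's adjusted p was at least 0.549 for each subunit of the ring. Without TPN 1, 5 of the 7 genes of the MCM list (Mcm2 to Mcm6) were lower without overlap and 1 (Mcm10) was higher, where 12.8% of all features were lower and 13.7% higher. For Mcm4 the groups then all but touched, at 2.5634 FPKM in control 1 and 2.5628 in TPN 3. The median log2 fold change of the 7 was -0.55 without TPN 1 in place of -0.22. It was -0.38 without control 2, -0.19 without control 1, -0.11 without TPN 2, -0.091 without control 3 and -0.050 without TPN 3. TPN 1 is the rat with the high Lcn2 level given above.

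Mcm10, which is no part of the ring but links it to polymerase alpha at the fork, went the other way. It measured 0.651, 1.03 and 0.993 FPKM in control and 1.59, 2.76 and 1.72 in TPN, so that every TPN rat was above every control. Its means differed 2.27-fold (log2 fold change 0.66, SE 0.18, limma unadjusted p = 0.00995, adjusted p = 0.357). No other member was higher in TPN without overlap, and none joined it when any single rat was left out.

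**Figure D3:**
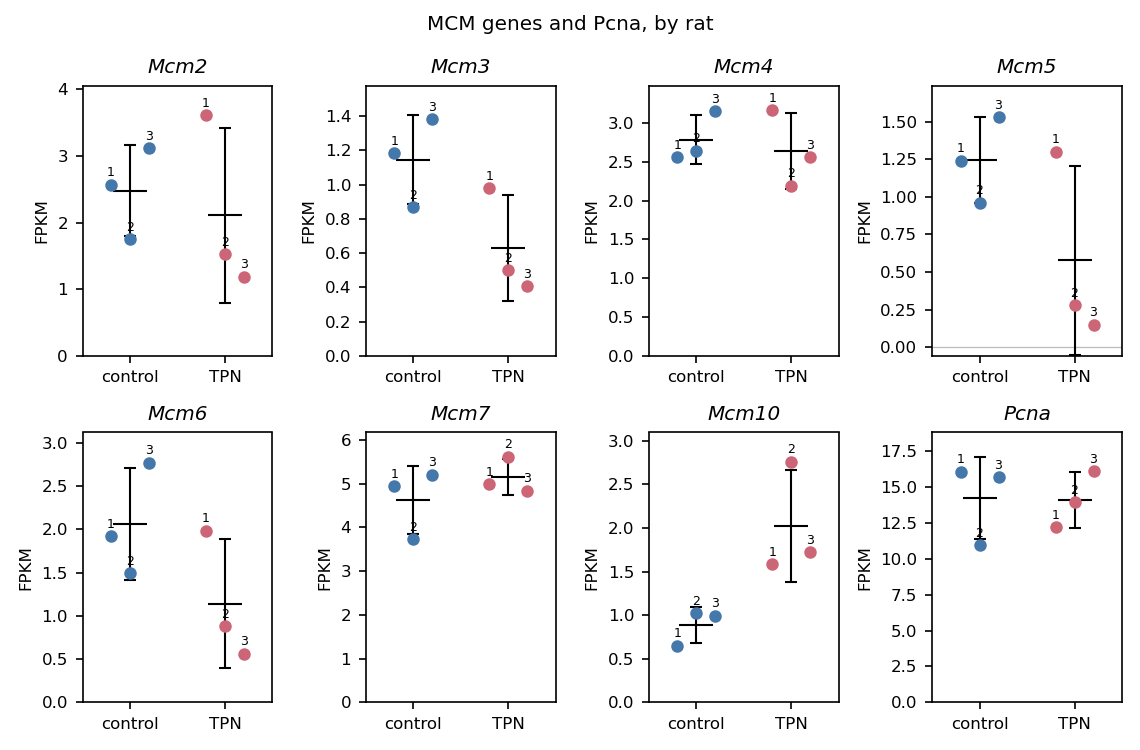
FPKM by rat of the 7 MCM genes and of Pcna, with the rat's number beside each point and the mean and SD of the 3 rats as bars. TPN 1 lies within or above the controls in Mcm2 to Mcm6 while TPN 2 and 3 lie lower, Mcm7 and Pcna are level between the groups, and Mcm10 is higher in all 3 TPN rats.

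E2F letters stood in 5 of the 6 MCM windows, where Mcm10 was the exception and Mcm4 has no entry in the table. The 250 bases before the start are shown for 4 of them, Mcm2 and Mcm5 as genes low in TPN 2 and 3, Mcm7 as the level one and Mcm10 as the one higher in TPN. Capitals mark the E2F letters. In Mcm2 a match at 14 bases before the start overlaps one on the other strand, at 10 bases before it, to form a palindrome, and Mcm5 has a like overlap farther out and a further match at 8 bases before the start. The windows are chr4:122918095-122918344 (minus strand), chr19:13488563-13488812 (plus), chr12:22163179-22163428 (minus) and chr17:78175137-78175386 (plus).
Mcm2: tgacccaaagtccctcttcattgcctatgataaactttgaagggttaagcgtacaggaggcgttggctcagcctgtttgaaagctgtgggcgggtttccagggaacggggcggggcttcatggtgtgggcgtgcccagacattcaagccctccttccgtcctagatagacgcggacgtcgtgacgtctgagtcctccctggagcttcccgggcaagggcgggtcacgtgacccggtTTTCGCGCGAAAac
Mcm5: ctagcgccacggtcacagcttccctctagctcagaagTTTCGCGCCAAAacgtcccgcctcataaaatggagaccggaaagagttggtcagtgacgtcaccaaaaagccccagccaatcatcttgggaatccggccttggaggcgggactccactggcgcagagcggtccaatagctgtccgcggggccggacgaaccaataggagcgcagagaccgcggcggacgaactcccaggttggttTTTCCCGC
Mcm7: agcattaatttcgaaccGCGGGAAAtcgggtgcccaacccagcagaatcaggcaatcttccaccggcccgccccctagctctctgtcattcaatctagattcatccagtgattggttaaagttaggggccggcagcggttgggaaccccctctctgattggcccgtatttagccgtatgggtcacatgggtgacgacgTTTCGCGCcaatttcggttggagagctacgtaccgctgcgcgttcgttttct
Mcm10: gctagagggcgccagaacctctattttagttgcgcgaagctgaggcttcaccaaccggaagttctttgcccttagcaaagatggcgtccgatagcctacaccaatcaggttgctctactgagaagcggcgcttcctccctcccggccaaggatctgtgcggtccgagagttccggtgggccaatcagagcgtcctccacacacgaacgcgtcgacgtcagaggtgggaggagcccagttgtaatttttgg

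The GINS genes, whose products complete the active helicase, overlapped in all 3 cases and were under 1.2 FPKM in every rat. Gins1 measured 0.582 to 1.18 FPKM in control and 0.216 to 0.760 in TPN, Gins2 0.455 to 0.894 and 0.657 to 0.958, and Gins3 0.280 to 0.549 and 0.315 to 0.452. Gins4, the fourth subunit and not a member, was lower without overlap, with 1.66, 1.85 and 1.60 FPKM in control and 1.01, 0.429 and 0.527 in TPN (log2 fold change -0.72, limma adjusted p = 0.270).

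Subunits of the same polymerase also parted. Pola1, the catalytic subunit of polymerase alpha, measured 1.805, 1.63 and 2.13 FPKM in control and 1.47, 1.89 and 2.47 in TPN. Pola2, its accessory subunit, measured 0.965, 1.06 and 1.19 FPKM in control and 0.703, 0.426 and 0.320 in TPN, without overlap (log2 fold change -0.49, SE 0.13, limma unadjusted p = 0.00935, adjusted p = 0.356). The ratio of Pola2 to Pola1 was 0.582 ± 0.0623 in control and 0.278 ± 0.180 in TPN (SD, n = 3). The primase subunits that share this complex overlapped. Prim1 was the most abundant gene of the polymerase group, with 11.3, 4.96 and 8.72 FPKM in control and 6.09, 6.39 and 8.52 in TPN, and Prim2 measured 0.991 to 1.44 and 0.561 to 1.43. Pole, the catalytic subunit of the leading-strand polymerase, was lower without overlap but by a narrow margin, with 0.672 to 1.09 FPKM in control and 0.398 to 0.632 in TPN. Pold1, that of the lagging-strand polymerase, overlapped through TPN 1, at 0.541 to 1.06 and 0.356 to 0.869 FPKM.

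Pcna, the sliding clamp and a common marker of S phase, did not separate the groups. It measured 16.05, 10.9 and 15.7 FPKM in control and 12.2, 13.9 and 16.1 in TPN (log2 fold change -0.0047 with SE 0.19, adjusted p = 0.995 by limma). It was the most abundant member in both groups. In control liver Dut came next, at 13.2 ± 2.50 FPKM against 14.2 ± 2.86 for Pcna, which overlap, then Ccnd1 at 11.4 ± 5.57, Rpa1 at 9.82 ± 3.25 and Prim1 at 8.33 ± 3.18. In TPN liver Pcna at 14.0 ± 1.94 stood clear of Dut at 7.99 ± 1.35, and Prim1, Rpa1 and Mcm7 followed at 7.00, 5.51 and 5.15. The ratio of Tk1 to Pcna, both S-phase genes, was 0.458 ± 0.0827 in control and 0.160 ± 0.0719 in TPN (SD, n = 3), without overlap.

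The clamp loader genes Rfc2 to Rfc5 had negative log2 fold changes from -0.15 to -0.49, and 1 of the 4 did not overlap. Rfc5 measured 5.57, 3.65 and 4.70 FPKM in control and 3.16, 2.46 and 3.39 in TPN (SE 0.18, limma adjusted p = 0.474). Rfc4 was uniform in TPN, at 2.45 to 2.57 FPKM, and ran from 2.41 to 4.43 in control, with control 2 under all the TPN rats. Rfc2 measured 3.41 to 4.55 FPKM in control and 2.73 to 3.81 in TPN, and Rfc3 1.42 to 3.45 and 1.07 to 2.53.

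Rpa1, the large subunit of the single-strand binding complex, measured 11.6, 6.06 and 11.8 FPKM in control and 5.46, 5.52 and 5.56 in TPN. The TPN rats were close to each other and control 2 lay just above them (log2 fold change -0.68, SE 0.25, limma unadjusted p = 0.0305, adjusted p = 0.480). Rpa2, the middle subunit, was level, at 1.89 to 2.46 FPKM in control and 1.52 to 2.49 in TPN. The ratio of Rpa1 to Rpa2 overlapped, with 4.49 ± 1.19 in control and 2.81 ± 0.735 in TPN (SD, n = 3). Fen1, the flap endonuclease of Okazaki fragments, measured 1.74 to 3.00 FPKM in control and 1.25 to 3.10 in TPN. Lig1, the ligase that seals them, measured 1.18 to 1.97 FPKM in control and 0.829 to 1.52 in TPN.

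Of the chromatin genes, Uhrf1 did not overlap. Uhrf1, which guides DNA methylation to newly copied strands, measured 0.690, 0.501 and 0.417 FPKM in control and 0.159, 0.207 and 0.0726 in TPN (3.67-fold between means, log2 fold change -0.42, SE 0.11, limma unadjusted p = 0.00625, adjusted p = 0.313). The log2 value is small beside the ratio because the gene lies under the pseudocount. The histone chaperone subunits Chaf1a and Chaf1b overlapped through TPN 1. Chaf1a measured 0.696 to 1.04 FPKM in control and 0.79996, 0.382 and 0.212 in TPN 1, 2 and 3, and Chaf1b 0.218 to 0.395 and 0.279, 0.0493 and 0.162.

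The number of members that separated depended on TPN 1 and control 2. TPN 1 was the highest of the TPN rats in 20 of the 41 members, and control 2 the lowest of the controls in 32. In 11 members (Mcm2 to Mcm6, Cdt1, Prim2, Pold1, Lig1, Chaf1a and Chaf1b) TPN 1 alone reached the controls. Without it 22 members were lower without overlap, where 12.8% of all features were. Without control 2 the count was 17 (16.4% of all features), and without both rats 26 (21.8%). Fewer rats make overlap rarer for any feature, so each count stands beside its own share. The 5 nucleotide supply genes and Ccnd1 were among the lower ones with all 6 rats.

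The rest of the pathway was described through 5 lists of genes outside the members, none of which held a gene past the adjusted threshold. Their counts stand beside those over all features, of which 51.9% were negative, 8.33% lower without overlap and 6.08% higher. Of 39 other fork and origin genes 26 were negative (median -0.077), with 9 lower and 3 higher without overlap. Without TPN 1 these were 14 and 8 (12.8% and 13.7% of all features). Without control 2, with a median of -0.125, they were 14 and 4 (16.4% and 11.3% of all features). The 4 with the smallest p were Asf1b, Gins4, Rnaseh2a and Ticrr. Asf1b, a histone chaperone of replicating cells, measured 0.469 to 0.494 FPKM in control and 0.0221 to 0.1996 in TPN. Rnaseh2a, which removes ribonucleotides from DNA, measured 9.37 to 11.6 FPKM in control and 6.45 to 8.53 in TPN. Ticrr, which helps to fire origins, was under 0.145 FPKM in every rat. Cdc45, which joins the MCM ring and GINS in the active helicase, overlapped through TPN 1 alone. It measured 0.144 to 0.303 FPKM in control and 0.0678 to 0.144 in TPN. The groups all but touched, at 0.14389 in control 1 and 0.14413 in TPN 1.

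The other enzymes of nucleotide metabolism divided into lower and higher genes. Of 27 genes 18 had a positive log2 fold change (median 0.15), 6 were higher and 5 lower without overlap. The higher ones numbered 11 without TPN 1 (13.7% of all features) and 10 without TPN 2 (11.7%), and the list's median moved to 0.26 when TPN 2 was left out and to 0.032 when TPN 3 was. Dck, the deoxycytidine kinase of the salvage pathway, measured 2.07, 1.79 and 1.93 FPKM in control and 0.985, 1.06 and 1.01 in TPN (log2 fold change -0.54, limma adjusted p = 0.248). Rrm2b was lower as given above. On the other side, higher without overlap, stood 2 genes of pyrimidine synthesis, which serves RNA as well as DNA. Gart, Adsl, Atic and Impdh2, of purine synthesis, were the other genes higher without overlap. Ctps1, which makes CTP from UTP, measured 2.76, 2.81 and 3.40 FPKM in control and 5.32, 5.19 and 8.10 in TPN (log2 fold change 0.83, limma adjusted p = 0.282). Umps, which makes UMP, measured 15.4, 16.2 and 17.1 FPKM in control and 24.9, 24.4 and 36.2 in TPN (log2 fold change 0.75, limma adjusted p = 0.309). Ctps2, which makes CTP by the same step as Ctps1, went the other way and was lower without overlap. It measured 6.31, 5.12 and 6.94 FPKM in control and 3.24, 5.03 and 3.85 in TPN (log2 fold change -0.51, limma adjusted p = 0.469).

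Among 26 other G1/S regulators 15 were negative (median -0.088), with 6 lower and 2 higher without overlap. The median depended on single rats and was 0.0058 without control 1, -0.032 without TPN 1 and -0.19 without control 2. Without TPN 1, 8 genes were lower and 5 higher without overlap, against 12.8% and 13.7% of all features. E2f8 and E2f7, the repressor E2Fs that are themselves made in S phase, were lower without overlap at levels under 0.36 FPKM, with 0.273 to 0.357 FPKM in control and 0.0254 to 0.0948 in TPN for E2f8. Tfdp2, a partner of E2F proteins, measured 2.46, 2.33 and 3.96 FPKM in control and 1.503, 0.941 and 1.0996 in TPN. Cdkn2c, an inhibitor of Cdk4 and Cdk6, measured 1.85 to 2.90 FPKM in control and 0.878 to 1.52 in TPN. Cdkn1a, Cdkn1b and Myc overlapped. Cdkn1a (p21) measured 5.04, 5.58 and 2.65 FPKM in control and 3.69, 15.0 and 1.24 in TPN, and Cdkn1b (p27) 10.6 to 16.2 and 10.3 to 15.2. Myc measured 4.05 to 5.84 FPKM in control and 2.99 to 6.09 in TPN.

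Of 22 genes of the S-phase checkpoint and of repair 16 were negative (median -0.15), and 9 were lower and none higher without overlap. Of the 8 with a mean of at least 1 FPKM, 2 were negative (median 0.038). None of these 8 was lower without overlap, where 9.09% of all features at that limit were. Without TPN 1, 11 of the 22 were lower and 1 higher without overlap (12.8% and 13.7% of all features). Fancd2, of the crosslink repair pathway, measured 0.523, 0.457 and 0.387 FPKM in control and 0.0901, 0.0390 and 0.119 in TPN (log2 fold change -0.43, limma adjusted p = 0.220). Bard1 and Blm, of recombination repair, measured 0.279 to 0.414 and 0.688 to 1.18 FPKM in control, and 0.0199 to 0.202 and 0.248 to 0.616 in TPN. Exo1, a repair nuclease, was under 0.18 FPKM in every rat.

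Genes of mitosis separated the groups far more often than the replication genes. All 29 had a negative log2 fold change (median -0.93) and 28 were lower without overlap, against 11 of 41 members with a median of -0.24. Without TPN 1 the counts were 29 of 29 and 22 of 41, where 12.8% of all features were lower without overlap. The 4 with the smallest p were Cdk1, Mki67, Bub1 and Ccna2. Cdk1, the kinase that drives entry into mitosis, measured 4.16, 3.61 and 3.06 FPKM in control and 0.703, 0.312 and 0.0543 in TPN (limma adjusted p = 0.124). Bub1, a spindle checkpoint kinase, measured 1.43, 1.21 and 1.085 FPKM in control and 0.259, 0.297 and 0.212 in TPN (limma adjusted p = 0.154). The summed level of the 29 genes ran from 40.2 to 74.0 FPKM in control and from 7.61 to 13.3 in TPN, without overlap. That of Mcm2 to Mcm7 ran from 11.4 to 17.2 in control and from 9.71 to 16.03 in TPN. The MCM sum overlapped through TPN 1 alone, as TPN 2 and 3, at 11.0 and 9.71, lay under every control. The difference between the lists was not tested.

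**Figure D4:**
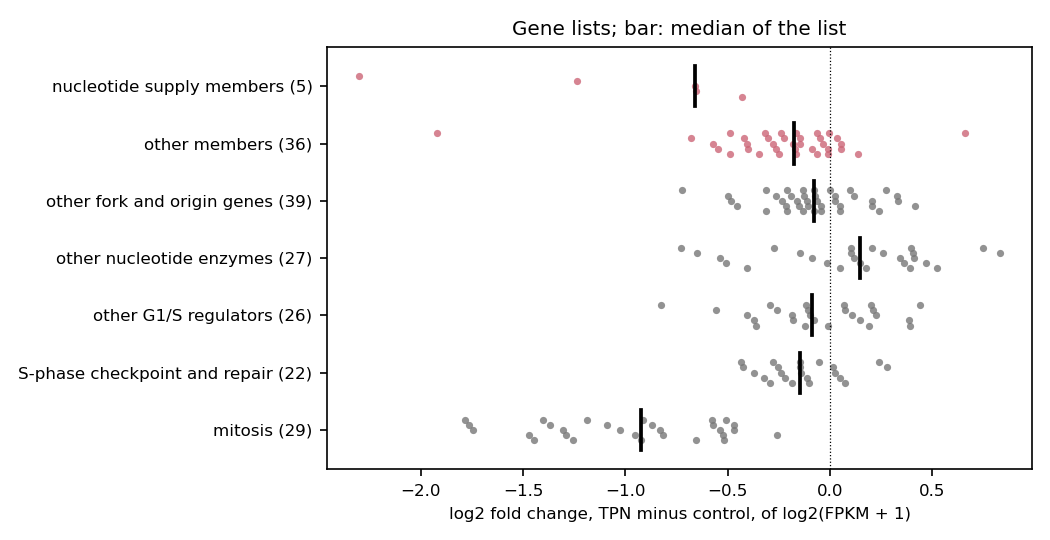
Log2 fold changes (TPN minus control, of log2(FPKM + 1)) of single genes in the nucleotide supply members, the other members and 5 lists of related genes, with a bar at each median and the number of genes in brackets. Medians are -0.66 for nucleotide supply, -0.18 for the other members, 0.15 for other nucleotide enzymes and -0.93 for mitosis, where no gene is above 0.

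Promoter letters divided the members from the mitosis genes along another line. E2F letters stood in 16 of 38 member windows (42.1%) and in 18 of 36 windows of other fork and origin genes (50%), against 1 of 25 mitosis windows (4.0%) and 2.14% of all 33465 windows. The cell cycle homology letters TTTGAA, known from mitotic promoters, showed the reverse, with 3 of 38 member windows (7.89%), 19 of 25 mitosis windows (76.0%) and 18.3% of all windows. CCAAT, the box bound by NF-Y, stood in 60.5% of member windows, 76.0% of mitosis windows and 37.5% of all windows, and the Sp1 letters GGGCGG in 65.8%, 72.0% and 33.1%. Motifs were counted with overlaps and on both strands. Within the members, E2F letters stood in 3 of 12 windows of genes lower without overlap and in 13 of 25 windows of genes that overlapped. This split depends on TPN 1. Mcm2, Mcm3, Mcm5, Mcm6, Cdt1 and Lig1, which hold the letters, overlapped only through that rat. So did Prim2, Pold1, Chaf1a and Chaf1b, which do not hold them. These are counts of letters in a window of 300 bases, with no test, and genes with several starts have several windows. Among the members lower without overlap, Uhrf1 and Dut have several windows each, most of them without a match. Rrm2 and Ccnd1 have no window, so the counts by window are not counts of genes.

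**Figure D5:**
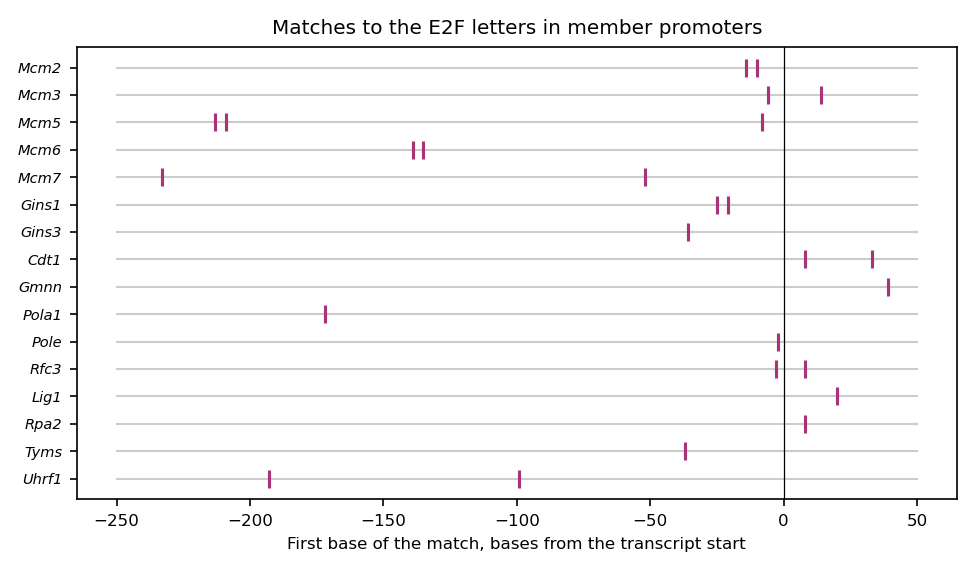
Position of each match to the E2F letters in the promoter windows of the 16 members that hold one, in bases from the transcript start at 0, on either strand. Matches run from -233 to 39, with that of Tyms at -37 and the farthest from the start in Mcm7 (-233), Mcm5 (-213 and -209) and Uhrf1 (-193).

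Other cell types that can divide or replicate in liver were followed through marker lists. Of 11 erythroid markers 10 had a negative log2 fold change and 7 were lower without overlap, against 8.33% of all features, and none passed limma's adjusted threshold. Their summed level ran from 2139 to 2442 FPKM in control and from 241 to 637 in TPN. Most of that sum is RNA of the globins Hbb, Hba-a1 and Hba-a2. Tfrc, the transferrin receptor that hepatocytes also make, overlapped, at 13.1 to 20.9 FPKM in control and 10.4 to 76.5 in TPN. The precursor markers Klf1, Gata1, Epor and Rhag were under 1 FPKM in every rat, and Rhag was listed at 0 in all TPN rats and in control 1. Granulocyte precursor markers summed to 0.255 to 0.651 FPKM in control and 0.0348 to 0.185 in TPN, without overlap and with all 5 under 1 FPKM. Ctsg, listed at 0 in all TPN rats, held the largest part of the sum in each control. Of these 5 markers 2 were lower without overlap, 3 overlapped and 1 had a positive log2 fold change.

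Lymphoid, myeloid and endothelial sums overlapped between the groups. T and NK cell markers summed to 3.63 to 7.64 FPKM in control and 3.11 to 6.39 in TPN, B and plasma cell markers to 3.42 to 25.8 and 7.63 to 10.4, and neutrophil markers to 6.12 to 25.8 and 14.1 to 41.4. Kupffer cell markers summed to 361 to 529.6 FPKM in control and 435 to 579 in TPN, endothelial markers to 55.7 to 89.5 and 66.2 to 84.5, and megakaryocyte markers to 6.58 to 10.8 and 8.13 to 11.4. Stellate cell markers summed to 109 to 178 FPKM in control and 77.5 to 104.5 in TPN, and cholangiocyte markers to 10.7 to 14.0 and 6.42 to 8.14, both without overlap. Col3a1 holds most of the stellate sum, and Epcam the largest part of the cholangiocyte sum. Of the 7 stellate markers 2 were lower without overlap, 5 overlapped and 2 had a positive log2 fold change. Of the 6 cholangiocyte markers 2 were lower without overlap, where 8.33% of all features were. Hepatocyte markers summed to 60198 to 81314 FPKM in control and 39997 to 67466 in TPN, with overlap. The part of these cell types in the lower Rrm2, Tk1, Tyms, Dut and Ccnd1 levels was not tested.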

How the data were processed

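Liver RNA of 3 control and 3 TPN rats was analysed, grouped by sample titles. TRIzol was used for total RNA and standard Illumina methods for libraries, per the labels' protocols. The authors deposited 1 table of FPKM, 1 column per rat. Per the submitters' processing notes, Bowtie 0.12.2, Cufflinks and the build Rnor_6.0 were used. How they were run, with which annotation, and how reads of near-identical or overlapping genes were assigned is not given in the sources used here. No counts are in the table, so depth is unknown and no counting interval is given.

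Features above 0 FPKM in at least 1 rat (20562) were kept, so that members under 1 FPKM stayed in. Log2(FPKM + 1) was fitted with limma 3.58.1 (R 4.3.3, statmod 1.5.0; trend, robust, group as the only term), 2-sided, with Benjamini-Hochberg adjustment over all features at 0.05. The script was tested on simulated data. An exact test of 3 against 3 cannot go under 0.10. Folds are ratios of mean FPKM. The members and lists were chosen with earlier results of these data known. Of 225 entries in 5 pathway and 11 marker lists 217 matched a symbol. All members are named, and of each pathway list the 4 genes with the smallest p, with Cdc45, Cdkn1a, Cdkn1b and Myc. Which other values are printed by rat, the ratios, Lcn2, Ccnd2, Ccnd3, Ctps2, the purine synthesis genes and the leading marker genes were chosen after values were seen. Alternatives were other pseudocounts, filters, scalings, moderation, sample weights, a replicate block, summed symbols and each rat left out. Leaving out control 2 and TPN 1 together was added after seeing the data. Promoters are RefSeq's (GRCr8), matched by symbol for 35 of 42 members. Figures used matplotlib 3.10.9.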

Additional observations from a re-analysis of the deposited data

How the results depend on the processing

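The count of features past the adjusted threshold was 0 in the fit reported (671 higher and 1227 lower at an unadjusted p under 0.05 by limma), 3 with a pseudocount of 0.1, 8 with 0.01, 30 with a minimum mean of 0.1 FPKM, 28 with 1 FPKM, 6 with 5 FPKM and 3 with sample weights. It was 0 in the other alternatives, each rat left out included. Of the members, 1 (Rrm2) passed with either smaller pseudocount and with a minimum mean of 0.1 or 1 FPKM. Rrm2 met the minimum of 1 FPKM only through its control values. Its adjusted p ran from 0.0166 to 0.315 over the alternatives and its log2 fold change was negative in all of them that kept it. The median of the members was -0.47 and -0.56 with pseudocounts of 0.1 and 0.01, -0.65 with a minimum mean of 5 FPKM, which kept 5 members, and -0.39 without control 2 and TPN 1. Members lower without overlap numbered 3 with that minimum, where 9.7% of all features were. With a minimum mean of 1 FPKM they numbered 8 of 25 (9.09% of all features), and with quantile normalisation 10 (7.52%). They numbered 11 to 22 with single rats left out (10.9% to 16.4%) and 26 without both rats (21.8%). The cause of these shifts was not tested, apart from the smaller number of members or rats in some. In 31 of 726 values of single members the sign differed from that reported, in 11 members, none past the threshold. Same-numbered rats did not deviate together in pairs 1 and 2 (correlations -0.214 and -0.143), while pair 3 had a correlation of 0.321. The highest correlation between a control and a TPN rat was 0.418, for control 2 with TPN 1. The replicate block gave 0 features past the threshold (560 higher and 1106 lower at an unadjusted p under 0.05 by limma). The depth of the libraries is unknown, which limits what can be said of members under 1 FPKM.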
